A study of Mus musculus with 18 samples.

Results

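Cycling fibroblasts of the neonatal mouse heart were defined by the transcripts found in single nanowells of P4 and P7 hearts (4 and 7 days after birth). A well was taken as a fibroblast well when it held at least 500 genes, when the summed UMIs (unique molecular identifiers, 1 per captured transcript) of Col1a1, Col3a1, Col1a2, Dcn, Pdgfra and Lum exceeded those of 6 endothelial and of 6 macrophage genes, and when they reached 0.3% of the non-mitochondrial UMIs. It was called cycling when at least 3 of Mki67, Top2a, Prc1, Tpx2, Pclaf, Pbk and Cdk1 were detected, and resting when none was. Of 4822 wells with at least 500 genes at P4 and P7, 1907 were fibroblast wells, of which 469 were cycling, 533 resting and 905 in between with 1 or 2 of the genes. The whole series held 23483 wells with a cell. Because these 7 genes chose the wells, their levels are a description, and a class cut from a score of this kind is a range and not a cell type.

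The hearts came from mice labelled Myh6/Esr1-Tomato, a strain in which a tamoxifen-activated Cre under the cardiomyocyte promoter Myh6 marks cardiomyocytes with tdTomato, so all wells shared this background and none carried a knockdown. According to the study, the mothers received tamoxifen by mouth in the first days after delivery. Heart pieces from P4 and P7 pups were digested with a cardiomyocyte isolation kit. For its bulk experiments the study describes differential adherence of kit-digested neonatal cells and low-speed centrifugation after Langendorff perfusion. The separation step used for these chips was not taken as known. Live single cells were picked by imaging in an ICELL8 chip. The well reports name 2 animals at each stage, and each name occurs on both chips of its stage. One name was taken as one animal, giving 4 animals on 4 chips, but no source used here states that a name marks the same pup on both chips, and the study's description counts its biological replicates differently. Every n, block and SD below rests on this reading. Fibroblast wells of P14 and P28 hearts, which were digested by Langendorff perfusion instead, served only to compare shares and the detection of single genes.

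Fibroblasts are the matrix-making cells of the heart, and they divide in the growing neonatal ventricle and become largely quiescent as the heart matures. A dividing cell first copies its DNA in S phase, with replicative helicases, nucleotide synthesis enzymes and new histones, and then builds a spindle and separates its chromosomes in G2 and M phase. Genes of the first kind are typically driven by E2F factors. Genes of the second kind are controlled by the DREAM and MuvB-B-Myb-FoxM1 complexes, which read the CHR element near the start site. CCAAT boxes often lie in the same promoters.

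The promoters of these genes are shown first, since the 2 classes of cell cycle genes differ in the motifs they hold. RefSeq promoters of GRCm38.p6, 250 bases before to 50 bases after the start, were searched on both strands for the CHR element (TTTGAA), the CCAAT box (CCAAT) and the E2F site (TTCCCGC or TTGGCGC). The CHR letters stood in 25 of 33 promoters of the G2 and M phase list (75.8%, 32 of 37 genes matched) and in 3 of 27 promoters of the S phase list (11.1%, 24 of 31 genes matched), with 17.9% among all 32851 promoters. E2F letters had the opposite order, with 48.1% of S phase promoters, 15.2% of G2 and M phase promoters and 6.81% of all promoters. CCAAT was held by 75.8% of G2 and M phase, 59.3% of S phase and 37.4% of all promoters, and extracellular matrix genes were near the background for CHR, at 15.6%. A match is a description of letters and not a bound site. The 150 bases upstream of the start are given for Top2a and Cdk1, which belong to the genes that chose the wells, for the 3 tested G2 and M phase genes of highest mean CPM in cycling wells among those with CHR letters inside these 150 bases (Cks1b, Ckap2l, Kif11), and for the 2 S phase genes chosen likewise by E2F letters (Rrm1, Hells). Genes whose letters lay farther upstream or after the start were not eligible. They are written from 5′ to 3′ on the strand of the gene, and capitals mark the motifs on either strand.
Top2a, chr11:99024190-99024339, minus strand: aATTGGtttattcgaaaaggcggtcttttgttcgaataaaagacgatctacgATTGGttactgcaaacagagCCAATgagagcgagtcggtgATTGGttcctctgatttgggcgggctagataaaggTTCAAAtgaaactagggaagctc
Cdk1, chr10:69352913-69353062, minus strand: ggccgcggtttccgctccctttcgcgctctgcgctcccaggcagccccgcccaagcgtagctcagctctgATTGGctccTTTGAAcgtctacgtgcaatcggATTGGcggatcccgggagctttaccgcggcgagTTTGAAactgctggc
Cks1b, chr3:89418292-89418441, minus strand: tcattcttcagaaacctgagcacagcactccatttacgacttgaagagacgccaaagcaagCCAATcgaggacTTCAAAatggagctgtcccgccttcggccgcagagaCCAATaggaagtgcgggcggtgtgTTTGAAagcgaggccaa
Ckap2l, chr2:129297213-129297362, minus strand: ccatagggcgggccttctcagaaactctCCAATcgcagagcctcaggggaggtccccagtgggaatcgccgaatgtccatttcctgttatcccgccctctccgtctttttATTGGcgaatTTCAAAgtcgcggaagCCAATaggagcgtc
Kif11, chr19:37376232-37376381, plus strand: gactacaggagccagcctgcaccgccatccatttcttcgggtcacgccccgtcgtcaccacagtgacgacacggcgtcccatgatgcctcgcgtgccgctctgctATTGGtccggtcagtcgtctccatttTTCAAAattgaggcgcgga
Rrm1, chr7:102441545-102441694, plus strand: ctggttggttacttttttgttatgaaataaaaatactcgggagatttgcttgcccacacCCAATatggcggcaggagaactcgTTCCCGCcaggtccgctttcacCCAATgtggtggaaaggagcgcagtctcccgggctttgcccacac
Hells, chr19:38930840-38930989, plus strand: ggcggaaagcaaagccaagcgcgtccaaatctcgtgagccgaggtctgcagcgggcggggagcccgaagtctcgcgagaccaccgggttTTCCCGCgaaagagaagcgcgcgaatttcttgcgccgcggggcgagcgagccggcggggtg
The last CHR element lay 15 bases before the start in Cdk1, 23 in Top2a, 17 in Cks1b, 30 in Ckap2l and 19 in Kif11, in each case with a CCAAT box upstream of it. Rrm1 and Hells had the E2F letters 67 and 61 bases before the start, and neither held a CHR element in this stretch.

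Cycling wells were deep wells. At P4 the median cycling well held 23634 UMIs and the median resting well 6699, and at P7 these were 27612 and 8952. Depth thus moved with the class. Detecting 3 genes is easier in a deep well, but the cause of the difference in depth was not tested. Shares and detection were therefore also computed after thinning every well to 3000 UMIs. The test across genes was repeated with wells thinned to at most 5000 UMIs, which left shallower wells as they were. Mitochondrial genes, left out of all levels below, took 17.8% of the UMIs of cycling wells at P4 and 45.3% at P7, against 19.7% and 50.1% in resting wells. Well barcodes mark positions on a chip, and 16 of the 453 distinct barcodes of cycling wells occurred on more than 1 chip. Of 20 negative control wells, 1 held a transcript of the 7 genes, and none had more than 206 genes.

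Among the genes that chose the wells, Top2a, which untangles replicated DNA, was found in 405 of the 469 cycling wells (86.4%), and Mki67, which coats mitotic chromosomes, in 386 (82.3%). Prc1, a spindle midzone protein, was found in 325 wells, Pclaf, a partner of the replication clamp, in 283, Tpx2, a spindle assembly factor, in 251, Cdk1, the kinase that drives mitosis, in 217, and the mitotic kinase Pbk in 172. Levels are given in UPM, the UMIs of a gene or list per 1000000 non-mitochondrial UMIs of the summed wells. The level of Mki67 was 643 and 578 UPM in the 2 P4 animals and 822 and 754 in the 2 P7 animals, and that of Top2a was 606, 838, 559 and 527 in the same order. Prc1 was the most abundant of the 7 in P4 animal 2, at 1042 UPM. The median cycling well held 48 UMIs of the 7 genes, and 18 wells rested on 5 UMIs or fewer. On the fibroblast side of the label, Col3a1 was found in 99.1%, Col1a1 in 95.9% and Dcn in 95.5% of cycling wells. Pdgfra, a receptor that marks cardiac fibroblasts, was low, at 39.2% of cycling and 22.9% of resting wells.

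The share of fibroblast wells that were cycling was 27.6% in P4 animal 1 (exact Clopper-Pearson 95% interval 23.5 to 31.9) and 17.2% in P4 animal 2 (13.9 to 20.9). At P7 it was 24.1% (20.4 to 28.2) and 29.8% (25.7 to 34.1), so the animals of the stages overlapped. The stage means were 22.4% ± 7.33 and 27.0% ± 3.98 (SD, n = 2 animals), and chips of 1 stage differed as much, with 15% and 28.3% at P4 and 19.6% and 35.2% at P7, the deeper chip being higher at both stages. When every well was thinned to 3000 UMIs, shallower wells were left out and the classes were assigned again, the shares were 14.1% and 12.7% at P4 and 11.2% and 13.4% at P7. The means became 13.4% ± 1.02 and 12.3% ± 1.56, with the order of the stages turned, so no difference between P4 and P7 was read from the share. These intervals cover counting error only.

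Endothelial wells, chosen by the same cut with their own genes, had cycling shares of 19.96% ± 3.42 at P4 and 30.1% ± 6.36 at P7 (SD, n = 2), and 14.6% ± 1.68 and 17.0% ± 2.51 after thinning. At P14, 0 of 215 fibroblast wells passed the cut, which allows a share of up to 1.395% (3 counts of the total; the exact interval reaches 1.70%), and at P28 20 of 1598 did (1.252%). Thinned to 3000 UMIs, these were 0 of 224 and 9 of 1149 wells (0.783%). Before thinning, the median fibroblast well held 12800 UMIs in P14 hearts and 6176 in P28 hearts, against 12509 (P4) and 16968.5 (P7). The part of depth in these shares was not tested. Later hearts were digested in another way, so stage and digestion cannot be told apart.

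**Figure D1:**
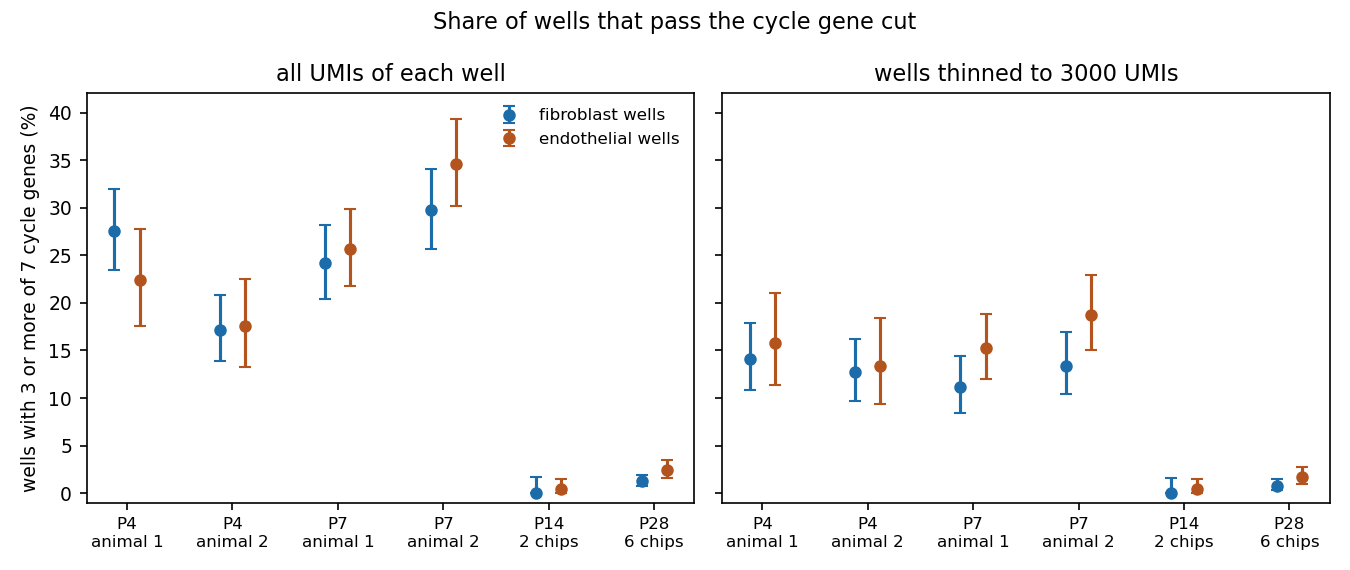
Percent of fibroblast (blue) and endothelial (orange) wells with 3 or more of the 7 cycle genes, by animal at P4 and P7 and over all chips at P14 and P28, with exact 95% intervals, from all UMIs (left) and after thinning each well to 3000 UMIs (right). P4 and P7 fibroblast wells sit between 17.2% and 29.8% on the left and between 11.2% and 14.1% on the right, and P14 wells are at 0.

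The cut does not fall in a gap. Of the fibroblast wells, 367 had 2 of the genes and lay just outside it, and 189 had 3 and lay just inside, which made 40.3% of the cycling wells. Only 58 wells held all 7 (12.4%). The summed level of the G2 and M phase list was 905 UPM in wells with none of the genes, 1076 with 2, 1435 with 3, 4653 with 5 and 9333 with 7. The S phase list went from 843 through 947 with 2 and 1275 with 3 to 4111 with 7, and replication-dependent histones from 743 through 1063 with 3 to 10315. Wells at the cut thus carried levels nearer to resting wells than to wells with all 7 genes, and the class mixes both. Matrix genes were at 24997 UPM with none of the genes and between 19815 and 23986 with 1 to 7. Markers of cardiomyocytes had no steady order, at 10438 with none, 11217 with 2, 7846 with 5, 12556 with 6 and 6282 with 7.

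**Figure D2:**
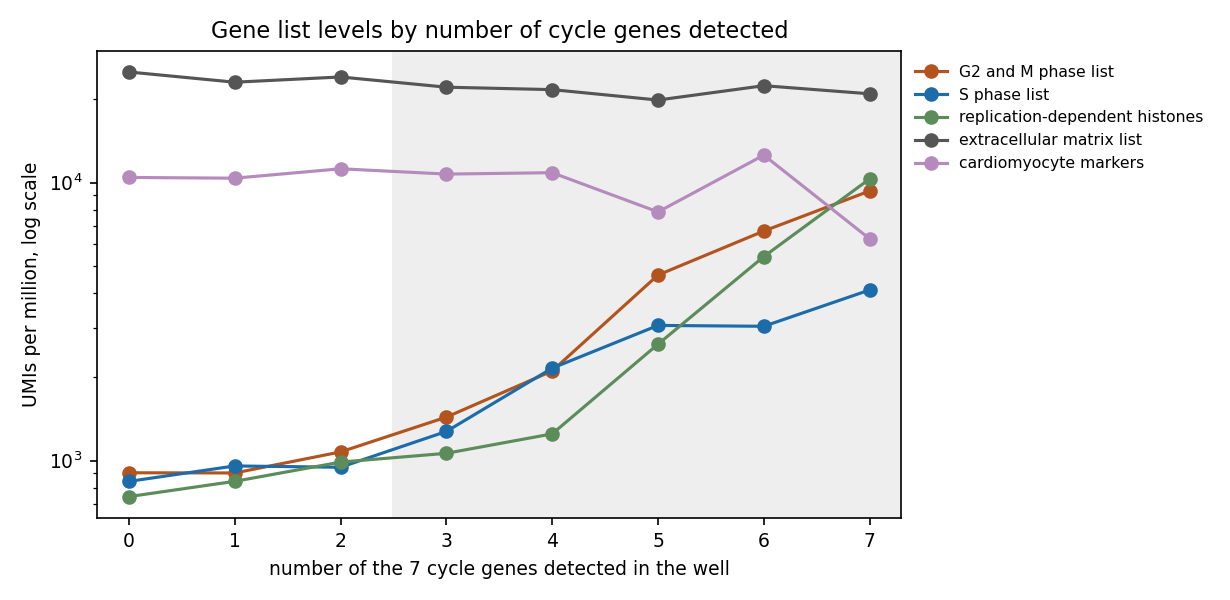
Summed level of 5 gene lists (UPM, log axis) in fibroblast wells grouped by how many of the 7 cycle genes were detected, with the cycling range shaded. The G2 and M phase, S phase and histone lists climb from 3 genes on, to 9333, 4111 and 10315 at 7 genes, while the matrix list stays between 19815 and 24997.

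Cycling and resting wells of the same animal were then compared, with UMIs summed per animal and class and the animal as a block, by the quasi-likelihood test of edgeR, adjusted after Benjamini and Hochberg over 11460 genes. The genes of the cut and the genes of the 3 cell classes were kept out of the test. The other cell cycle genes were not used by the rule, but they move with those that were, so their direction is no independent support for the class. Of all genes, 9 passed an adjusted p of 0.05, all of them higher in cycling wells (0.0785% of the genes tested), and 0 were lower (0%). At an unadjusted p under 0.05 there were 842 genes, of which 4.64% of all genes tested were higher and 2.71% lower. Without 1 animal the test called 0 to 4 genes, 0 of them without P4 animal 2, and DESeq2 called 302 (237 higher and 65 lower), so the number of calls depends on the animals and the tool while the levels of the lists do not rest on the calls. Levels of single genes below are in CPM, counts per 1000000 after scaling of the sums, listed in the order P4 animal 1, P4 animal 2, P7 animal 1 and P7 animal 2.

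Cenpm and Cenpf had the smallest adjusted p. Cenpm, a subunit of the constitutive centromere complex, stood at 185, 406, 174 and 171 CPM in cycling and at 6.10, 12.2, 7.504 and 21.8 CPM in resting wells, a log2 difference of 4.35 (SE 0.41, adjusted p = 0.0138). Cenpf, a large kinetochore protein, was at 391, 421, 395 and 514 CPM against 117, 64.6, 68.1 and 80.9 (log2 2.41, SE 0.23, adjusted p = 0.0138). The animals were close to each other within each class for Cenpf, and the classes did not overlap for either gene. Cdca8, the borealin subunit of the chromosomal passenger complex, was at 281, 300, 219 and 133 CPM against 71.2, 12.6, 24.1 and 10.9 (log2 3.31, SE 0.43, adjusted p = 0.04). Cenpm lies on chr15:82233779-82244748, Cenpf on chr1:189640606-189688086 and Cdca8 on chr4:124918465-124939311 (GRCm38, GENCODE vM21).

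Nusap1, which bundles spindle microtubules at chromosomes (chr2:119618298-119651244), was at 167, 171, 126 and 136 CPM in cycling and 15.6, 5.44, 16.6 and 14.3 CPM in resting wells, a log2 difference of 3.61 (SE 0.42, adjusted p = 0.0306). Aspm, which focuses spindle poles (chr1:139454772-139494091), was at 119, 149, 75.1 and 64.3 CPM against 8.82, 4.76, 8.04 and 4.76 (log2 3.92, SE 0.46, adjusted p = 0.0306). Kif4, a chromosome-bound kinesin that partners Prc1 at the midzone (chrX:100625737-100727214), was at 95.04, 178, 147 and 150 CPM against 2.71, 8.84, 22.0 and 18.4 (log2 3.68, SE 0.46, adjusted p = 0.0387). Each of these genes was found in more cycling than resting wells, Nusap1 for instance in 36.9% against 5.82%. In Aspm 1 well gave 15.6% of all UMIs, the highest such share among the 9 genes.

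Atad2, a chromatin-bound ATPase of S phase (chr15:58094044-58135082), rose from 29.2, 13.9, 20.4 and 13.6 CPM in resting wells to 131, 219, 151 and 249 CPM in cycling wells (log2 3.29, SE 0.41, adjusted p = 0.0383). The histone H2A gene Hist1h2an (chr13:21786826-21787218) rose from 8.82, 5.10, 5.90 and 10.9 to 110, 117, 52.0 and 76.5 CPM (log2 3.53, SE 0.47, adjusted p = 0.0468). Replicated H2A genes are near copies of each other, so the value of a single one is uncertain. The ninth gene was Gm13176, a processed pseudogene on chr2:4834136-4834612 that shared 145 of its 453 words of 25 bases (32.0%) with Prc1. It was found in 155 cycling wells, all of which also held Prc1, and in 1 resting well, so it is not independent of the rule.

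**Figure D3:**
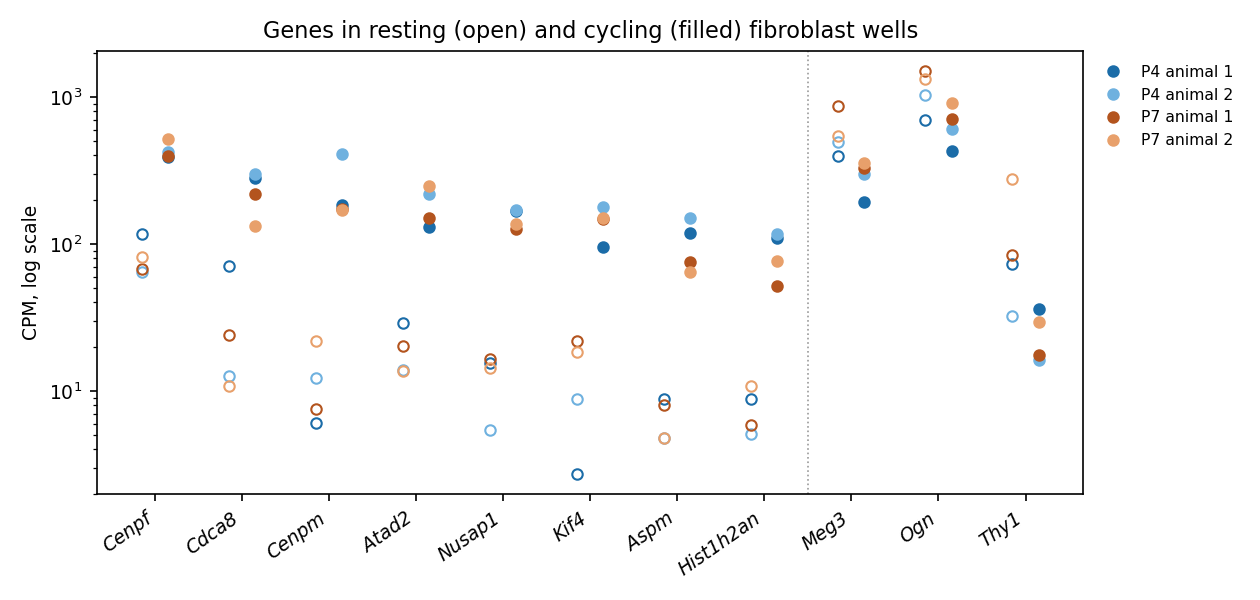
CPM (log axis) of 8 genes called higher in cycling wells, left of the dotted line, and of Meg3, Ogn and Thy1, right of it, in resting (open) and cycling (filled) wells of each animal. The filled points of the 8 genes lie above all open points of the same gene, with Cenpf at 391 to 514 against 64.6 to 117 CPM, while Meg3, Ogn and Thy1 were not called in this fit.

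Of the 37 genes of the G2 and M phase list 36 could be tested, 30 were higher in all 4 animals and 28 had sums that did not overlap between the classes, where 9.22% and 3.17% of all genes did so. Its median log2 difference was 2.70, against 0.01 over all genes, and 4 members passed the adjusted test (Cenpf, Nusap1, Kif4 and Cdca8). Aurkb, the passenger complex kinase, was at 45.6, 31.7, 11.4 and 15.8 CPM in cycling and 3.39, 1.36, 0.536 and 1.36 CPM in resting wells (adjusted p = 0.0821), and Ccnb2, a mitotic cyclin, at 162, 114, 91.7 and 103 against 50.9, 10.9, 5.36 and 25.8 (adjusted p = 0.0772). Birc5, or survivin, was at 305, 362, 351 and 228 CPM against 99.0, 10.2, 36.4 and 36.7 (adjusted p = 0.0756). These missed the threshold, and in Hmmr, a spindle-associated protein, P4 animal 1 had 225 CPM in cycling and 246 CPM in resting wells. The summed list was at 1741, 590, 764 and 827 UPM in resting and 4391, 4574, 3513 and 3569 in cycling wells, without overlap, P4 animal 1 having the highest resting level.

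Of the 31 S phase genes 30 were tested, 24 were higher in all 4 animals, 18 did not overlap, and the median log2 difference was 1.84, with Atad2 the 1 that passed. Mcm5, a subunit of the replicative helicase, was at 87.1, 87.0, 90.5 and 47.8 CPM in cycling and 15.6, 17.3, 15.01 and 9.52 in resting wells (adjusted p = 0.0696). Hells, a chromatin remodeller whose promoter holds an E2F site, was at 154, 294, 104 and 106 CPM against 29.8, 33.0, 35.4 and 32.0 (adjusted p = 0.0658). Mcm2 showed a different spread, with 147 CPM in P4 animal 2 and 16.6, 26.1 and 20.7 in the others, and 1 well gave 37.97% of its UMIs. Rrm1, the large subunit of ribonucleotide reductase, was not separated, at 149, 372, 113 and 140 CPM against 37.3, 54.1, 313 and 112, and its small subunit Rrm2 was at 93.6, 148, 34.4 and 58.5 against 48.8, 4.08, 6.97 and 19.05. Ccne2, a cyclin of S phase entry, was at 179, 133, 132 and 83.1 CPM in cycling and 40.0, 23.1, 28.9 and 2.72 CPM in resting wells (adjusted p = 0.0772).

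Replication-dependent histones were testable for 28 of 58 genes, of which 20 were higher in all 4 animals and 17 did not overlap, with a median log2 difference of 2.27 and 1 called. The summed list was at 4210, 4772, 2009 and 2751 UPM in cycling and 745, 494, 944 and 918 UPM in resting wells. Hist1h2ap was at 1699, 1990, 833 and 1110 CPM in cycling and 185, 84.7, 239 and 315 CPM in resting wells (log2 2.81, SE 0.44, adjusted p = 0.0652). The linker histone Hist1h1b had 226 and 225 CPM in the P4 animals and 37.3 and 56.4 in the P7 animals, against 1.36 to 23.0 in resting wells, with 19.9% of its UMIs from 1 well. Chromatin and nuclear structure genes were testable for all 21, of which 17 were higher in all 4 animals and 13 did not overlap, with a median of 0.99. The edgeR test called none of them, with 17 at an unadjusted p under 0.05, and DESeq2 called 11 higher. Smc2, a condensin subunit, was at 229, 367, 209 and 300 CPM against 79.3, 49.99, 83.6 and 61.9 (adjusted p = 0.0613), and the chromatin protein Dek at 548, 663, 506 and 403 against 260, 266, 225 and 233 (adjusted p = 0.0632). H2afz, a histone variant that is not tied to replication, was at 175, 268, 255 and 207 CPM against 77.3, 64.3, 82.5 and 103. Tubulins and Stmn1 had a median of 0.79 over 11 genes, with 6 higher in all 4 animals and 2 without overlap, Stmn1, a microtubule destabiliser, at 302, 310, 209 and 220 CPM against 125, 91.5, 49.8 and 120.

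**Figure D4:**
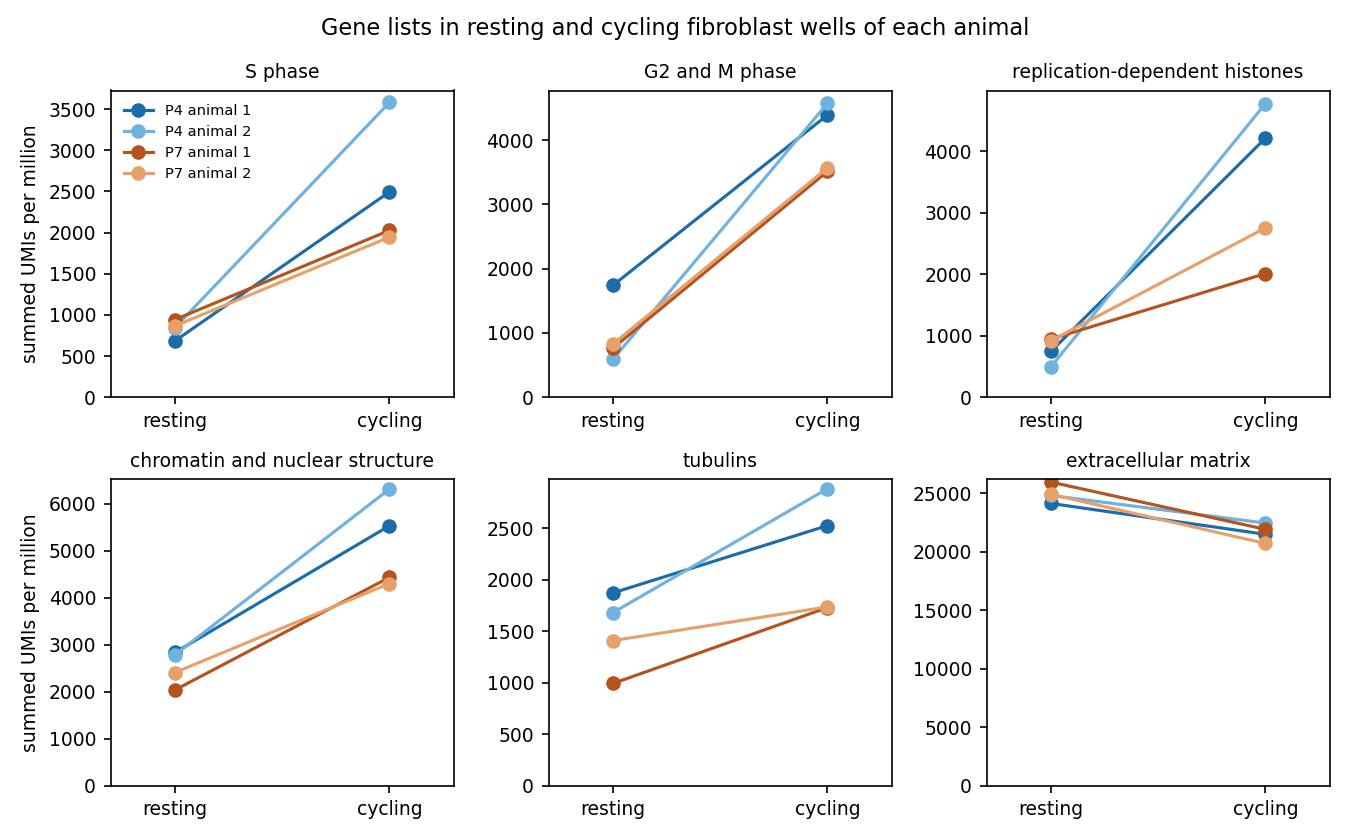
Summed UPM of 6 gene lists in resting and cycling fibroblast wells, 1 line for each animal, on axes that start at 0. The G2 and M phase sums lie at 590 to 1741 in resting and 3513 to 4574 in cycling wells, and the extracellular matrix sums at 24136 to 25964 and 20713 to 22455.

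G1 cyclins and inhibitors of cyclin-dependent kinases did not follow the rest of the cycle. Of 18 genes 16 were tested, 2 were higher and 2 lower in all 4 animals, and the median log2 difference was 0.21. Of all genes, 9.22% were higher and 7.4% lower in all 4 animals. The edgeR test called none, with 1 higher and 1 lower at an unadjusted p under 0.05, where 4.64% and 2.71% of all genes were so. DESeq2 called 1 higher, Cdkn2c. Ccnd1, the cyclin that couples growth signals to the cycle, was at 244, 335, 202 and 287 CPM in cycling and 431, 236, 307 and 307 CPM in resting wells, and Ccnd2 at 314, 275, 277 and 181 against 525, 264, 275 and 258, so both overlapped. Of the inhibitors, Cdkn1c was at 143, 99.8, 75.1 and 64.3 CPM against 186, 102, 77.2 and 115, and Cdkn1a, a target of p53, at 61.7, 32.4, 127 and 61.1 against 35.3, 20.1, 78.8 and 64.6. Cdkn2c, an inhibitor of Cdk4 and Cdk6, was the one member without overlap, at 54.5, 35.7, 24.5 and 24.1 CPM against 5.42, 10.9, 3.22 and 7.48 (log2 2.38, SE 0.61, adjusted p = 0.293). Of all genes, 3.17% were higher without overlap.

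None of 42 extracellular matrix genes was called by the edgeR test, with 6 lower at an unadjusted p under 0.05, where 2.71% of all genes were lower. DESeq2 called 1 of them lower, the proteoglycan gene Ogn. Of the 42, 9 were lower and 0 higher in all 4 animals, where 7.4% of all genes were lower in all 4, and the median log2 difference was -0.13. The summed list was 21494, 22455, 21921 and 20713 UPM in cycling and 24136, 24820, 25964 and 24915 in resting wells, so the sums were lower in each animal and did not overlap. Sparc, a collagen-binding matrix protein, was at 2963, 3087, 2988 and 3058 CPM in cycling and 3422, 2932, 3799 and 3258 in resting wells. Postn, the matricellular periostin, was at 1497, 1551, 1049 and 913 CPM against 1182, 2210, 1575 and 1350, and the classes overlapped in both genes. Among 20 fibroblast identity genes the median was -0.23, with 4 lower and 2 higher in all 4 animals. Of all genes, 7.4% were lower and 9.22% higher in all 4. The transcription factor Tcf21 was at 137, 167, 54.9 and 72.4 CPM against 159, 187, 86.8 and 40.8.

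A group of genes was lower in cycling wells in each animal without passing the edgeR test. Meg3, an imprinted long non-coding RNA, was at 194, 301, 327 and 355 CPM in cycling and 397, 494, 869 and 542 CPM in resting wells (log2 -0.94, SE 0.18, adjusted p = 0.111). Ogn, the proteoglycan osteoglycin, was at 426, 608, 713 and 909 CPM against 699, 1038, 1504 and 1329 (log2 -0.78, SE 0.14, adjusted p = 0.0898). Malat1, a nuclear RNA, was at 32636, 32192, 39624 and 35135 CPM against 44313, 42178, 53466 and 44894 (log2 -0.40, SE 0.06, adjusted p = 0.0613). DESeq2 called Meg3 and Ogn lower (adjusted p = 0.0025 and 0.00446) and not Malat1 (adjusted p = 0.239). Meg3 and Malat1 did not overlap between the classes, where 1.4% of all genes were lower without overlap. Imprinted growth genes as a list were not uniform, since Plagl1, a zinc finger regulator of other imprinted genes, was at 73.6, 61.3, 44.4 and 38.2 CPM against 29.2, 18.02, 28.9 and 22.4, Igf2 at 786, 556, 428 and 443 against 568.3, 688, 406 and 584, and the median of the 11 was -0.31. Growth factor signalling (median -0.23 over 21 genes), immediate early genes (-0.22 over 16), glycolysis (-0.13 over 12) and cytosolic ribosomal proteins (-0.09 over 78) had no member called by edgeR or DESeq2. At an unadjusted p under 0.05 edgeR gave 1 lower, 1 higher and 3 lower, 1 lower, and 2 higher in the same order. Of all genes tested, 4.64% were higher and 2.71% lower at this threshold. Of the 78 ribosomal protein genes, 16 were lower and 8 higher in all 4 animals, where 7.4% and 9.22% of all genes were so.

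When each well was thinned to at most 5000 UMIs before summing, 106 of 7129 genes were higher (1.49%) and 17 lower (0.238%) in edgeR's quasi-likelihood test at an adjusted p of 0.05. Of the 31 G2 and M phase genes still testable, 21 were called higher, as were 6 of 24 S phase genes, 9 of 18 histones, 11 of 20 chromatin genes and 3 of 10 tubulins, and the 9 genes called without thinning were all among them. Malat1 was then called lower (log2 -0.47, SE 0.04, adjusted p = 1.3e-05), as were Ogn (-0.92, SE 0.12, adjusted p = 0.00065), Meg3 (-0.72, SE 0.17, adjusted p = 0.035), Col5a2, a fibril-regulating collagen (-0.59, SE 0.14, adjusted p = 0.049), and Thy1, a surface marker of mesenchymal cells (-1.85, SE 0.42, adjusted p = 0.033). No gene was called lower with resting wells nearest in depth to cycling wells (10 higher) or in pairs at like depth (11 higher). The first choice set no limit on the gap in depth. P4 animal 1 had 124 cycling and 125 resting wells, P7 animal 1 had 120 and 124, and P7 animal 2 had 142 and 88. Nearly all resting wells were kept there and stayed shallower, so this setting cannot show what happens at equal depth. In the pairs the log2 differences were -0.25 for Malat1 (adjusted p = 0.384), -0.77 for Ogn (adjusted p = 0.306) and -0.89 for Meg3 (adjusted p = 0.324). Thy1 had 41.5, 23.3, 15.5 and 23.1 CPM in thinned cycling wells and 75.1, 60.7, 110 and 128 CPM in thinned resting wells. Cardiomyocyte Tnnt2 and pericyte Abcc9 were also among the 17, and 4 of the 17 were pseudogenes that shared at least 20% of their 25-base words with mitochondrial transcripts. Thinned to 3000 UMIs, Cenpf was found in 35.4% of 463 cycling and 9.47% of 433 resting wells, Nusap1 in 23.1% and 2.54%, and Birc5 in 29.8% and 5.08%. P14 fibroblast wells, of which none passed the cut but some may have held 1 or 2 of the 7 genes, had Cenpf in 1.89% and Nusap1 in 0 of 212 wells (which allows up to 1.415%, and 1.72% by the exact interval), so resting wells of P4 and P7 stood above that level for Cenpf. Postn was found in 82.1% of cycling and 79.7% of resting wells but in 16.0% at P14 and 20.3% at P28. Other matrix genes differed less, with Sparc in 98.3%, 95.8%, 84.0% and 92.0% and Ogn in 46.4%, 52.7%, 35.8% and 42.6% in the same order. The P14 and P28 hearts were digested in another way, so stage and digestion cannot be told apart in these values.

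Cycling wells differed in their balance of S phase against G2 and M phase UMIs. More UMIs of the G2 and M phase list than of the S phase list were found in 291 of the 469 wells (62.0%), fewer in 172 (36.7%) and as many in 6, and 163 wells lay within 2-fold of equality. The lists differ in size, and resting wells held both, at 834 ± 109 and 981 ± 516 UPM (SD, n = 4 animals), so the balance is a description and assigns no phase to a well. The share with more S phase UMIs was 39.5% and 41.0% in the P4 animals and 35% and 33.1% in the P7 animals. The median well gave 0.139% of its UMIs to the S phase list and 0.225% to the G2 and M phase list. Genes outside both lists differed between these wells as a description, since the wells were split by cycle genes: Prc1 was at 286 UPM in the wells with more S phase and 1128 in those with more G2 and M phase UMIs, Pclaf at 340 and 242, and Ccnd1 at 334 and 214.

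**Figure D5:**
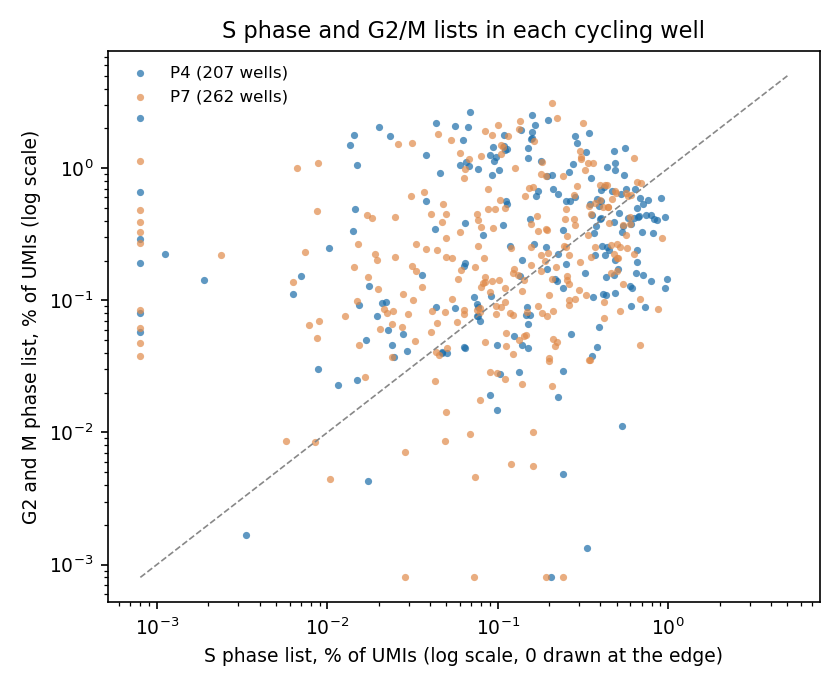
Percent of UMIs from the S phase list (horizontal) and from the G2 and M phase list (vertical), both on log axes with 0 drawn at the edge, in each of the 207 P4 and 262 P7 cycling wells. Above the dashed line of equality lie 291 wells and below it 172, with wells of both stages on either side.

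Cycling wells of P7 and P4 were compared over 4 animals, 2 at each stage, with the same test over 13152 genes. Of these 14 were higher (0.106%) and 16 lower (0.122%) at P7, and none of them was a member of the S phase or G2 and M phase lists. Without P7 animal 1 there were 5 calls and without P7 animal 2 there were 11. The cycle lists were lower at P7 on balance, with a median log2 difference of -0.46 for S phase (10 of 30 without overlap), -0.47 for G2 and M phase (21 of 36), -0.54 for histones (15 of 28) and -0.66 for tubulins (7 of 11), where 21.7% of all genes were lower and 22.3% higher without overlap and the median of all genes was 0.01. Wells with all 7 genes made up 16.1% and 16.9% of cycling wells in the P4 animals and 8.33% and 9.86% in the P7 animals. List levels were higher in wells with more of the genes, and the part of this make-up in the stage difference was not tested. Cks2, a Cdk-binding subunit, was at 40.6 and 73.9 CPM at P4 and 16.2 and 15.8 at P7, and Hmgn2, a nucleosome-binding protein, at 253 and 356 against 56.8 and 73.1 (log2 -2.23, SE 0.29, adjusted p = 0.055). Hmgn2 was lower at P7 in resting wells too, at 156 and 111 against 36.4 and 36.7 CPM. Mki67, by contrast, was higher at P7 in the values given above, and Cenpf, at 400 and 425 against 408 and 532 CPM, overlapped.

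Haemoglobin genes were among the genes called between the stages and rose, Hba-a1 from 111 and 105 CPM at P4 to 4237 and 2688 at P7 (log2 5.0, SE 0.27, adjusted p = 0.00388), with Hba-a2 and Hbb-bt, and the summed erythroid markers were 343 and 367 UPM at P4 and 15640 and 8624 at P7 in cycling wells, against 661, 491, 8906 and 14004 in resting wells. Myl7, the atrial myosin light chain, fell from 819 and 638 CPM to 28.3 and 11.5 (log2 -5.21, SE 0.46, adjusted p = 0.0168), and was at 1188 and 874 against 7.5 and 19 CPM in resting wells. Xist, the RNA of the inactive X chromosome, was at 180 and 265 CPM in the P4 animals and 0.491 and 1.17 CPM in the P7 animals, and Y-linked Ddx3y was at 0 and 0 against 68.8 and 72.4. The P4 wells thus read as female and the P7 wells as male. Stage, sex, chip, mitochondrial share, time since tamoxifen and any difference in dissection cannot be told apart here.

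Of the 30 called genes 15 were annotated as pseudogenes, and 19 shared at least 20% of their 25-base words with another gene, against which their reads are hard to place. Gm1821, which shared 88.3% of its words with the ubiquitin gene Ubb, fell from 2572 and 2739 CPM to 440 and 464 (log2 -2.55, SE 0.14, adjusted p = 0.00388). Ftl1-ps1, which shared 65.7% with the ferritin light chain gene Ftl1, fell from 247 and 280 to 7.62 and 11.3, and Gm15590, which shared 85.8% with Ftl1-ps1, and Gm4883 fell as well. Gm13340, which shared 53.7% with the mitochondrial gene mt-Co1, rose from 7994 and 6760.4 to 17157 and 17699 CPM (log2 1.24, SE 0.12, adjusted p = 0.0204), and Gm4076, which shared 33.3% with mt-Nd5, rose from 336 and 240 to 1964 and 1856. Gm11407, which shared 28.6% with Gm4076, rose too, as did the miRNA genes Gm23193 and Gm26339, which shared 17.2% and 6.67% with another gene. Mitochondrial genes themselves took a larger share of UMIs at P7, as given above, and the part of this in the pseudogene values was not tested.

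Whether the difference between cycling and resting wells itself changed from P4 to P7 was tested by an interaction term over 13463 genes. Genes past an adjusted p of 0.05 numbered 0 (0%), with 549 at an unadjusted p under 0.05, 2.14% higher and 1.94% lower at P7, and DESeq2 called 30. On simulated counts the edgeR fit recovered 0% of log2 differences of 2 and 8.96% of those of 3. The simulated counts had a lower dispersion (spread beyond counting error) than the 0.364 fitted to the data, so these rates may be too high. Having 0 calls therefore does not show that the difference was the same at both stages. Without 1 animal the test called 2 to 37 genes, the most without P4 animal 2. The median interaction was -0.92 for S phase, -0.66 for G2 and M phase and -1.51 for histones, where 7 of 28 histones were below zero at an unadjusted p under 0.05. Summed histones were 5.65 and 9.65 times higher in cycling than resting wells in the P4 animals and 2.13 and 2.997 times in the P7 animals, so the animals of the stages did not overlap. For the G2 and M phase list these ratios were 2.52 and 7.75 at P4 and 4.598 and 4.31 at P7, and did overlap. The part of the make-up of the cycling class, given above, in these ratios was not tested.

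The same change in endothelial wells served to ask whether anything was particular to fibroblasts. Over 12208 genes 0 differed between the lineages in edgeR's quasi-likelihood test of the interaction (0%), with 584 at an unadjusted p under 0.05, 1.83% with a larger change in fibroblasts and 2.96% with a smaller one, and DESeq2 called 28. On simulated counts the edgeR fit recovered 13.4% of log2 differences of 2 and 47.8% of those of 3. Here too the simulated dispersion was lower than that fitted to the data, 0.41, so these rates may be too high. Having 0 calls therefore does not show that the lineages changed alike. The 385 cycling endothelial wells had S phase sums of 2386 ± 560, G2 and M phase sums of 4607 ± 931 and histone sums of 3442 ± 1011 UPM (SD, n = 4 animals). Cycling fibroblast wells had 2511 ± 753, 4012 ± 549 and 3436 ± 1277. Within animals the G2 and M phase sum was lower in fibroblast than in endothelial wells each time, at 4391 against 4763, 4574 against 5811, 3513 against 4240 and 3569 against 3613 UPM. The S phase sum was higher in fibroblast wells in 3 of the 4 animals and the histone sum in 1. These differences between the summed lists were not tested.

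Markers of other cells were present in both classes. The 8 cardiomyocyte markers summed to 10233, 7751, 11185 and 9994 UPM in cycling and 12596, 10347, 8602 and 10832 in resting wells, and none of the 8 was at 0. The 6 endothelial genes of the rule summed to 1017, 761, 1620 and 1462 against 945, 584, 1475 and 1388, with Fabp4, a lipid carrier of capillary endothelium, found in 92.1% of cycling wells. Macrophage genes of the rule were at 37.4 to 77.8 in cycling and 37.0 to 248 in resting wells, and lymphocyte and Schwann cell markers did not exceed 6.60 in any sum. Granulocyte markers were at 1.73 to 128 in cycling and 0.660 to 6.94 in resting wells. They were higher in cycling wells of each animal, by factors of 2.62, 18.4, 22.4 and 4.02. Of the 4 genes 2 were tested, both higher at an unadjusted p under 0.05 in edgeR, where 4.64% of all genes were. The adjusted edgeR test called 0 of them and DESeq2 called 1 higher. No called gene of the cycle belonged to these lists. Wells in which another lineage exceeded 20% of the fibroblast sum (125 cycling and 122 resting) were left out as an alternative, which called 20 genes, and leaving out wells with more than 1% cardiomyocyte marker UMIs (164 and 241 wells), an alternative chosen after the data were seen, called 4.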

How the data were processed

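Libraries from 4 P4 and P7 chips, with P14 and P28 chips for comparison, were analysed; knockdown samples were left out. The authors mapped reads to mm10 with STAR 2.5.2b, assigned them to Ensembl genes with featureCounts (Subread 1.4.6-p1) and deposited raw UMI counts per gene and well with a report that names each well's type and animal. Chips held 29831634, 49951821, 56811148 and 64065235 UMIs, of which the cycling wells of the 4 animals gave 5198206, 2857955, 4178343 and 5360743 non-mitochondrial ones. The parts of the number of animals and of the uneven depth of wells in the precision were not tested. Wells were taken as single cells from the study's imaging, and no doublet caller was run.

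Members and gene lists were chosen with earlier results of these data known. Levels in UPM are per 1000000 non-mitochondrial gene UMIs (34 mitochondrial genes left out). UMIs summed per animal and class, at least 10 wells a sum, went into edgeR 4.0.16 under R 4.3.3 (TMM, filterByExpr, quasi-likelihood test, Benjamini-Hochberg at 0.05), with the animal as block for cycling against resting and for the interactions. The 7 cycle and 18 cell class genes stayed in the sums but out of the tests. Scripts were tested on simulated data. DESeq2 1.42.0 was an alternative, with RLE scaling, no low-count filter, sums per chip, thinning, other cuts, resting wells nearest in depth, no block and leaving out each animal. Nothing states that animals of 1 stage were from separate litters. Named genes were those of the lists, up to 10 further genes in each direction with the smallest p for cycling against resting, and up to 5 in each direction for P7 against P4 whose animals did not overlap; the genes chosen after their values were seen are Malat1, Myl7, Ddx3y and, among promoters, Top2a and Cdk1. Shares have exact Clopper-Pearson intervals, and a count of 0 allows 3 counts of the total. Words of 25 bases were compared among GENCODE vM21 transcripts.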

Additional observations from a re-analysis of the deposited data

Results flagged for a closer look

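The tdTomato reporter, which no comparison used, was present in 166 of the 469 cycling fibroblast wells (35.4%), at 81.0 UPM (UMIs per 1000000 non-mitochondrial UMIs), and in 129 of 533 resting wells (24.2%), at 106 UPM, while 0 of 20 negative control wells held it. It was listed because it stood above the control wells. In the 286 wells in which cardiomyocyte markers made up at least 5% of the UMIs, 216 held it (75.5%), at 328 UPM. The share of wells with it was higher in cycling wells in each animal, at 37.9%, 37.3%, 32.5% and 34.5% against 26.4%, 25.5%, 21.8% and 21.6% in resting wells. The level had no common direction, at 87.0, 92.0, 98.4 and 55.8 UPM in cycling and 236, 66.9, 39.7 and 134 UPM in resting wells. Cycling wells had a median of 26168 UMIs and resting wells of 7536, and the part of depth in the share and the source of the reporter UMIs were not tested.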

How the results depend on the processing

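For cycling against resting wells, 9 genes were called. DESeq2 called 302, no filter on low counts 219, thinning to at most 5000 UMIs 123, a cut at 4 of the 7 genes 56, no replicate block 51, UMI totals within 2 SD 49, sums per chip 21, no mixed wells 20 and wells below 1% cardiomyocyte markers 4. Leaving out each animal gave 0 to 4. RLE scaling gave 9, resting wells nearest in depth (matched wells, with no limit on the gap) 10 and pairs of like depth 11. All 9 genes were also called by DESeq2, RLE, no filter, thinning, the cut at 4, the 2 SD limit and no block, 8 without mixed wells and with matched wells, 6 per chip and in depth pairs, and 3 without cardiomyocyte-rich wells. The cardiomyocyte limit and the depth pairs were chosen after the data were seen. The replicate block here is the animal, and the sample titles give no replicate numbers that could pair P4 with P7.

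For P7 against P4, 30 genes were called, and 396 by DESeq2, 401 with no filter, 19 per chip, 85 after thinning, 15 at the cut of 4 genes, 27 to 32 under RLE, no mixed wells, 2 SD and no cardiomyocyte-rich wells, and 5 to 22 without 1 animal. For the stage interaction 0 became 30 with DESeq2, 16 with no filter and 2 to 37 without 1 animal. The lineage interaction had 0, 28 with DESeq2, 12 with no filter, 1 at the cut of 4 genes and 0 without any 1 animal.

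Cycling shares of 22.4% (P4) and 27.0% (P7) became 13.4% and 12.3% after thinning, 37.6% and 50.2% at 2 genes and 14.2% and 15.2% at 4 genes. Over 69 genes and all alternatives, 820 of 1056 values kept direction and side of the threshold, 150 passed it, 85 lost it and 1 reversed, Btg1, an antiproliferative gene, from -0.64 to 0.07 in depth pairs. The cause was not tested in any case. With 2 animals a stage, differences between stages cannot be told from differences between animals, sexes or chips.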
